A study of Mus musculus with 24 samples.

Results

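The sites described here are all places in the antigen receptor loci other than the immunoglobulin heavy chain locus where at least 1 of 16 chromatin immunoprecipitation sequencing (ChIP-seq) libraries for the insulator protein CTCF or the cohesin subunit Rad21 had a peak. Overlapping peaks of all 16 lists were merged, and the merged sites were taken from 5 windows of the mouse build mm9. The windows held the immunoglobulin kappa locus (Igk, chr6:67500000-70800000), the T-cell receptor beta locus (Tcrb, chr6:40800000-41600000), the joint T-cell receptor alpha and delta locus (Tcra/Tcrd, chr14:52900000-54950000), the immunoglobulin lambda locus (Igl, chr16:19000000-19300000) and the T-cell receptor gamma locus (Tcrg, chr13:19200000-19500000). They held 778 of 90338 merged mouse sites (0.861%), of which 449 lay in Igk, 158 in Tcra/Tcrd, 77 in Igl, 49 in Tcrg and 45 in Tcrb. The other 89560 sites are called the rest of the genome. Each window also reaches into neighbouring genes.

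The cells were mouse pro-B lines, early B-lineage cells that the viral kinase v-Abl had transformed. Every line was deficient in RAG2, without which no receptor gene is rearranged, and carried an Eμ-Bcl2 transgene that keeps B-lineage cells alive. Every culture received 3 µM STI-571, an Abl kinase inhibitor that arrests such cells, for 4 days. The 6 groups were parental cells without further treatment (CTCF antibody, 3 libraries, and Rad21 antibody, 3 libraries), CTCFdegron cells given the auxin IAA (CTCF, 3, and Rad21, 3), Rad21degron cells without IAA (Rad21, 2) and Rad21degron cells given IAA (Rad21, 2). IAA, which triggers destruction of a degron-tagged protein, was used at 500 µM and began 6 h before STI-571. In the CTCF comparison the cell line and the IAA change together, because untreated CTCFdegron cells are not among the groups, so the tag and the auxin treatment cannot be told apart. The labels do not say whether libraries of 1 group came from separate cultures or whether a line was a single clone, so every p-value measures only the spread between these libraries, which may be technical.

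Antigen receptor genes are assembled from variable (V), diversity (D) and joining (J) segments by the RAG recombinase, and a V segment can lie very far along the chromosome from the J segments that it joins. CTCF binds an asymmetric DNA sequence, and cohesin, a ring that extrudes loops of chromatin, tends to stop at CTCF bound in one of its orientations, so that loops form between sites that point toward each other. The Igk interval between the last V segment and Igkj1 is known for CTCF-bound elements that hold back the nearest V segments, and the Tcra/Tcrd locus is known for CTCF sites at V promoters and at the Tcra enhancer.

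The sequences that the results turn on are given first. Each is 59 bases of mm9, printed 5′ to 3′ on the named strand, with the 19 bases that best fitted a CTCF matrix in capitals. That matrix was built from sites in the rest of the genome, as described for the motif results. The matches at the Igkv3-1 side of Igk, at the Igl outer pair and past Trac came from a search of the whole site, and the others from its centre. These whole-site matches are less certain, because none of these sites had a match at its centre. Flanking windows as wide as the CTCF site matched at 9.30% in Igk and 13.5% in the rest of the genome. The same windows matched at 1 of 9 sites in Igl and at 3.49% in Tcra/Tcrd. The Igk rate averages over sites with a median width of 1081.5 bp. The site beside Igkv3-1 is 1932 bp wide, so its own rate may be higher. In the Igk interval between V and J, a pair of strong sites had matches that point in opposite directions:
Igk V–J interval, side of Igkv3-1, chr6:70659847-70659905, - strand: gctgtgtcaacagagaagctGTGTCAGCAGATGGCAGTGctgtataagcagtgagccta
Igk V–J interval, side of Igkj1, chr6:70663283-70663341, + strand: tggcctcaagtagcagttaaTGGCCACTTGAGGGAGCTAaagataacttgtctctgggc
Both sites kept CTCF and Rad21 peaks after CTCF depletion. At 6 sites among the Igkv4 segments the same 19 bases recurred, and 3 of them are shown because all 6 lost CTCF:
Igkv4 copy, 50026 bp from Igkv4-78, chr6:69063490-69063548, - strand: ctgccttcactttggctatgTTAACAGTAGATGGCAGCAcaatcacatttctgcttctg
Igkv4 copy, at Igkv4-73, chr6:69150192-69150250, - strand: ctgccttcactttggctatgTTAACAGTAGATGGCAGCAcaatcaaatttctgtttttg
Igkv4 copy, 1390 bp from Igkv4-55, chr6:69559564-69559622, - strand: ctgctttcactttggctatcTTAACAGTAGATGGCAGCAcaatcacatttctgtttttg
The Tcra/Tcrd V region has large internal repeats, and the next 3 sites, one in each repeat, are shown because their 59 bases were identical and all 3 lost both proteins:
Trav15d-2-dv6d-2 copy, chr14:53581918-53581976, - strand: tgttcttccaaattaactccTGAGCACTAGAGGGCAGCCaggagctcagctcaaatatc
Trav15n-2 copy, chr14:53893053-53893111, - strand: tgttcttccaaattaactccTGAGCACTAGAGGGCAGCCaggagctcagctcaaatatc
Trav15-2-dv6-2 copy, chr14:54274530-54274588, - strand: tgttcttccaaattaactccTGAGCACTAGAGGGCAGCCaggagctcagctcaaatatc
Igl holds a pair of repeats, and its sites are shown because copies of nearly the same sequence had different fates:
Igl outer copy, CTCF kept, chr16:19003220-19003278, + strand: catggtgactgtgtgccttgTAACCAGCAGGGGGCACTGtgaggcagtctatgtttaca
Igl outer copy, CTCF lost, chr16:19146858-19146916, + strand: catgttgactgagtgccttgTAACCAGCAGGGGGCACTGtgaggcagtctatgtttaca
Igl copy by Iglv2, CTCF kept, chr16:19263610-19263668, - strand: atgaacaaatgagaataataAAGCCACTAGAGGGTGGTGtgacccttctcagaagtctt
Igl copy by Iglv1, CTCF lost, chr16:19088255-19088313, - strand: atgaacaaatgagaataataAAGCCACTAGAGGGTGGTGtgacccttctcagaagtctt
Single sites at the other loci are shown because they stand at the D, J and C segments or were the strongest kept site:
Tcra/Tcrd, between Trdv5 and the Traj segments, CTCF lost, chr14:54772685-54772743, - strand: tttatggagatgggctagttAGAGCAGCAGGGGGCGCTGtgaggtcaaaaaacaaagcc
Tcra/Tcrd, 3664 bp past Trac, CTCF kept, chr14:54847954-54848012, + strand: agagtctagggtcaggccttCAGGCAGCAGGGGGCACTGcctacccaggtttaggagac
Tcrb, 2618 bp before Trbd1, CTCF lost, chr6:41480154-41480212, - strand: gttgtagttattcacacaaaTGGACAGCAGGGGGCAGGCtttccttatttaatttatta
Tcrb, 1186 bp from Trbv14, CTCF kept, chr6:41087149-41087207, + strand: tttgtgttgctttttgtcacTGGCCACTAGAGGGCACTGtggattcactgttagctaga
Tcrg, at Tcrg-V7, CTCF kept, chr13:19269637-19269695, + strand: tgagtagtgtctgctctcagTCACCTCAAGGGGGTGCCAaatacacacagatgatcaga

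The lists held from 1384 to 67810 mouse peaks. CTCF lists had 46657 to 52357 in parental cells and 8215 to 15754 in depleted CTCFdegron cells. Rad21 lists had 29724 to 67810, 15690 to 35224, 22085 to 32913 and 1384 to 3588 in parental, depleted CTCFdegron, untreated Rad21degron and depleted Rad21degron cells. Peak lists hold no read counts, so the sequencing depth and the counting error of every value are unknown. Replicate 1 of the parental CTCF libraries stood apart in Igk, Igl and Tcrg. It had 226 peaks in Igk, against 139 and 132 in the other libraries, 35 in Igl, against 11 and 12, and 20 in Tcrg, against 14 and 15, while its peaks in Tcra/Tcrd (102, against 105 and 105) and Tcrb (23, against 20 and 23) did not stand apart. Results that rest on it are given with and without it. Of the 449 Igk sites, 209 had a peak in 1 list only, and 114 of those were in Rad21 parental replicate 1, the list with the most mouse peaks.

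CTCF peaks were denser in every receptor locus than in the rest of the genome, and so were Rad21 peaks, with the highest mean in Igl and lower means in Tcra/Tcrd and Tcrb than in Igk and Tcrg. In parental cells the CTCF density was 50.2 ± 15.9 peaks per Mb in Igk (mean ± SD, n = 3 libraries), 50.7 ± 0.845 in Tcra/Tcrd, 27.5 ± 2.17 in Tcrb, 64.4 ± 45.3 in Igl and 54.4 ± 10.7 in Tcrg, against 19.02 ± 1.17 in the rest of the genome. On the log2 scale each locus stood above the rest, by 1.36 in Igk, 1.42 in Tcra/Tcrd, 0.53 in Tcrb, 1.55 in Igl and 1.50 in Tcrg. All 3 libraries had a higher density than the rest in each of the 5 loci. Without replicate 1 the difference was 1.16 in Igk and 1.06 in Igl. Rad21 had 74.6 ± 29.1 peaks per Mb in Igk, 121 ± 50.9 in Igl and 75.6 ± 41.9 in Tcrg, but 35.4 ± 14.7 in Tcra/Tcrd and 25.4 ± 13.01 in Tcrb, against 18.3 ± 7.48 in the rest. The log2 differences were 2.04, 2.72, 1.96, 0.95 and 0.43 in the same order, again positive in all 3 libraries.

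Each of these 10 density differences had p = 0.25 by an exact two-sided sign-flip test (n = 3), which is the smallest p that 3 libraries allow, and 0.25 after Benjamini-Hochberg adjustment. The loci are rich in repeated segments. Of sampled 31-base words, 57.8% were unique in the reference in Igk and 49.7% in Tcra/Tcrd, against 83.3% in the rest. Counted per Mb of unique sequence, an alternative chosen after the data were seen, the CTCF differences were 1.88 in Igk, 2.16 in Tcra/Tcrd, 0.68 in Tcrb, 1.88 in Igl and 1.69 in Tcrg. Only the length was changed there and every peak was still counted, so each locus, with less unique sequence than the rest, had to rise. These values therefore cannot show what repeats contribute. Of sites with a CTCF peak in all 3 parental lists, the centre occurred once in the reference at 66 of 86 in Igk. The same held at 32 of 86 in Tcra/Tcrd and at 89.8% in the rest. How the authors' alignment treated reads that fit several copies is not given in the sources used here, and its part in these densities was not tested.

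**Figure D1:**
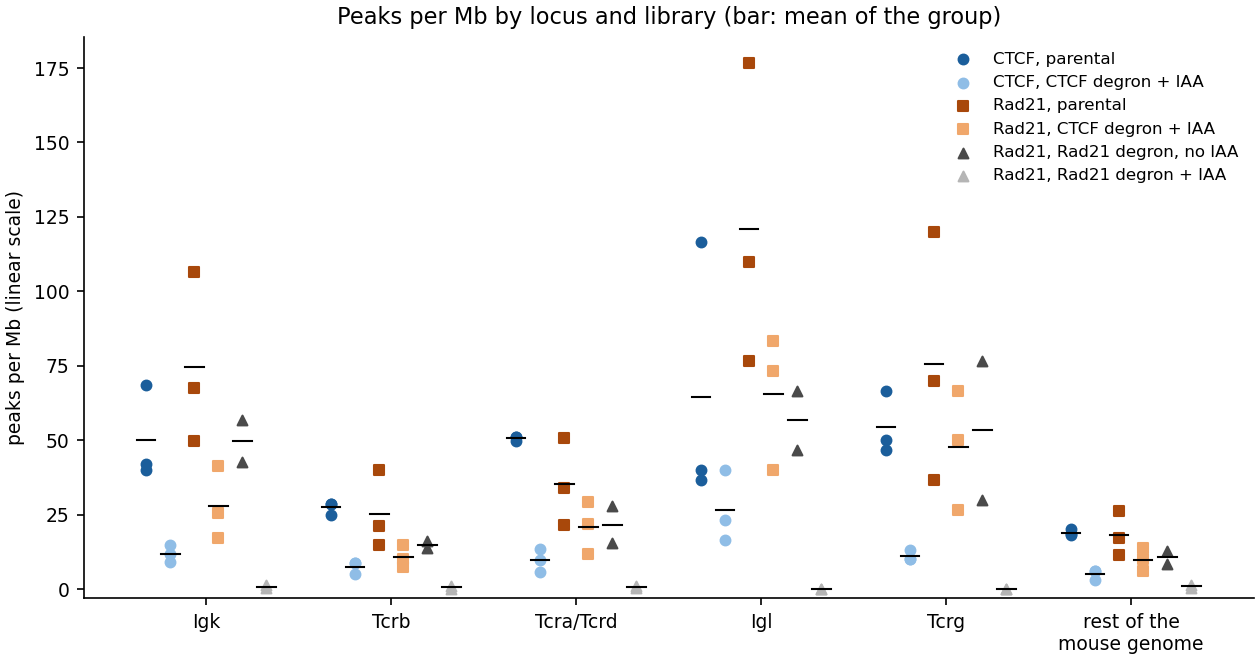
Peaks per Mb in each receptor locus and in the rest of the mouse genome (linear axis), by antibody and group. Points are single libraries and black bars are group means. CTCF density in parental cells ran from 40 to 68.5 in Igk and from 49.8 to 51.2 in Tcra/Tcrd, against 18.2 to 20.4 in the rest.

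Igk and Tcra/Tcrd had equal numbers of parental CTCF sites and very different numbers of cohesin sites. A CTCF control site, defined as a site with a CTCF peak in all 3 parental lists, was found 86 times in each of the 2 loci, 18 times in Tcrb, 11 times in Tcrg and 9 times in Igl. Rad21 control sites, defined in the same way, numbered 125 in Igk but 41 in Tcra/Tcrd, 16 in Igl, 11 in Tcrb and 10 in Tcrg. Neighbouring CTCF sites were a median of 26.9 kb apart in Igk and 16.2 kb apart in Tcra/Tcrd, whereas Rad21 sites were 17.4 kb apart in Igk and 31.7 kb apart in Tcra/Tcrd. In the rest of the genome these medians were 22.04 kb for CTCF and 25.4 kb for Rad21.

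Nearly every Igk CTCF site also carried cohesin. A Rad21 peak in all 3 parental lists was present at 80 of 86 CTCF control sites of Igk, and the other 6 had one in some lists. In Tcra/Tcrd it was 41 of 86, with 40 in some lists and 5 in none. The share was 10 of 18 in Tcrb, 7 of 11 in Tcrg, 8 of 9 in Igl and 61.1% in the rest of the genome. Averaged over the Rad21 libraries, 96.5% ± 3.08 of Igk CTCF sites had a Rad21 peak, against 73.3% ± 22.2 in Tcra/Tcrd and 79.0% ± 16.4 in the rest (SD, n = 3). Igk stood 17.5 percentage points above the rest and 23.3 above Tcra/Tcrd, with p = 0.25 in both exact sign-flip tests, the smallest p possible and 0.25 after adjustment over 6 such tests. Without Rad21 parental replicate 3, the list with the fewest peaks of the 3, these differences were 9.99 and 12.8. The merged CTCF control sites were also wider in Igk, with a median of 1081.5 bp, against 638.5 in Tcra/Tcrd and 755 in the rest. The part of width in these shares was not tested.

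In the other direction, Igk held cohesin sites without CTCF and Tcra/Tcrd held none. No parental CTCF list had a peak at 14 of the 125 Igk Rad21 sites (11.2%), at 3 of the 16 in Igl, at 0 of the 41 in Tcra/Tcrd, 0 of 11 in Tcrb and 0 of 10 in Tcrg, and at 4.52% of those in the rest. All 14 Igk sites lay among the V segments, none had a match to the CTCF matrix at its centre, and 4 of the 14 had a centre that occurred once in the reference, against 97.4% of such sites in the rest. A further 31 Igk Rad21 sites had a CTCF peak in only some parental lists, and at 17 of these the list was replicate 1 alone. With replicate 1 left out, 31 of 125 Igk Rad21 sites (24.8%) lacked CTCF in both other lists, as did 0 of 41 in Tcra/Tcrd, 5 of 16 in Igl, 3 of 10 in Tcrg and 9.31% in the rest.

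The 3 of these Igk sites with the highest Rad21 rank were modest peaks. The site at Igkv2-112 (chr6:68168912-68170557) overlaps an exon of that V segment and had authors' fold enrichments for Rad21 of 5.52, 6.64 and 5.14 in parental cells and 6.49, 5.49 and 6.05 after CTCF depletion. Although no parental list had a CTCF peak there, depleted CTCFdegron replicate 1 had one of 4.25. The site at the exon of Igkv2-109 (chr6:68251938-68253700) had 5.18, 5.48 and 4.83 in parental cells, then 5.00 and 4.05 with no peak in the third depleted list. The site 3757 bp from Igkv4-80 (chr6:68970831-68971502) had 5.05, 5.02 and 5.33, then no peak in replicate 1 and 4.07 and 4.24 in the other lists. The 31-base word at the centre of this last site occurs 31 times in the reference. All 3 had Rad21 peaks in both untreated Rad21degron lists and in neither IAA-treated one. Fold enrichment here and throughout is the peak caller's own value per peak, and it was not tested between groups.

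CTCF sites and V segments were placed differently in the 2 large loci. Within 1000 bp of a parental CTCF site lay 41 of 108 V segments in Tcra/Tcrd (38.0%) and 9 of 23 in Tcrb (39.1%), but 17 of 102 in Igk (16.7%), 2 of 7 in Tcrg and 0 of 3 in Igl. Seen from the sites, 42 of 86 CTCF sites in Tcra/Tcrd were that close to a V segment, against 16 of 86 in Igk. In Tcra/Tcrd the median position of the close sites was 217 bp upstream of the V segment's start, and in Igk 115 bp upstream. Rad21 had a peak in all parental lists at 15 of the 42 Tcra/Tcrd sites close to a V segment and at 26 of the 44 farther away, and no test of this difference was made. In Igk the close sites had it at 15 of 16 and the others at 65 of 70.

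The CTCF matrix was learned from 31714 CTCF sites in the rest of the genome and searched on both strands of the 301 bases at the centre of each site's highest peak. It matched 69.6% of those training sites and 5.00% of flanking windows of the same length, which set its threshold. A match was found at 56 of 86 CTCF control sites in Igk, 66 of 86 in Tcra/Tcrd, 10 of 18 in Tcrb, 5 of 9 in Igl and 8 of 11 in Tcrg. Searching whole sites, which can be several times wider, gave 60, 74, 11, 7 and 8. Flanking windows as wide as the site matched at 9.30% in Igk and 13.5% in the rest of the genome. A match describes letters only, and a site without one had none in the bases searched.

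The strands of the matches were set beside those of the V segments, with no test. In Tcra/Tcrd, where 107 of 108 V segments lie on the plus strand, 52 matches were on the plus strand and 14 on the minus strand. In Igk, whose V segments lie in both directions (39 plus and 63 minus), 25 were plus and 31 minus. In the V part of each locus, the match lay on the strand of the nearest V segment at 38 of 49 sites in Igk, 50 of 59 in Tcra/Tcrd and 6 of 6 in Tcrb. Of sites within 1000 bp of a V segment it did so at 5 of 8 in Igk and 34 of 36 in Tcra/Tcrd. The Igk strands changed in blocks along the locus. From 3 to 2 Mb before Igkj1 there were 12 plus and 3 minus matches among 23 plus and 6 minus V segments. From 2 to 1 Mb before it there were 2 plus and 15 minus matches among 1 plus and 29 minus V segments. In the last 1 Mb, 5 plus and 10 minus matches went with 13 plus and 27 minus V segments. In the rest of the genome the matches were 10949 plus and 11132 minus.

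**Figure D2:**
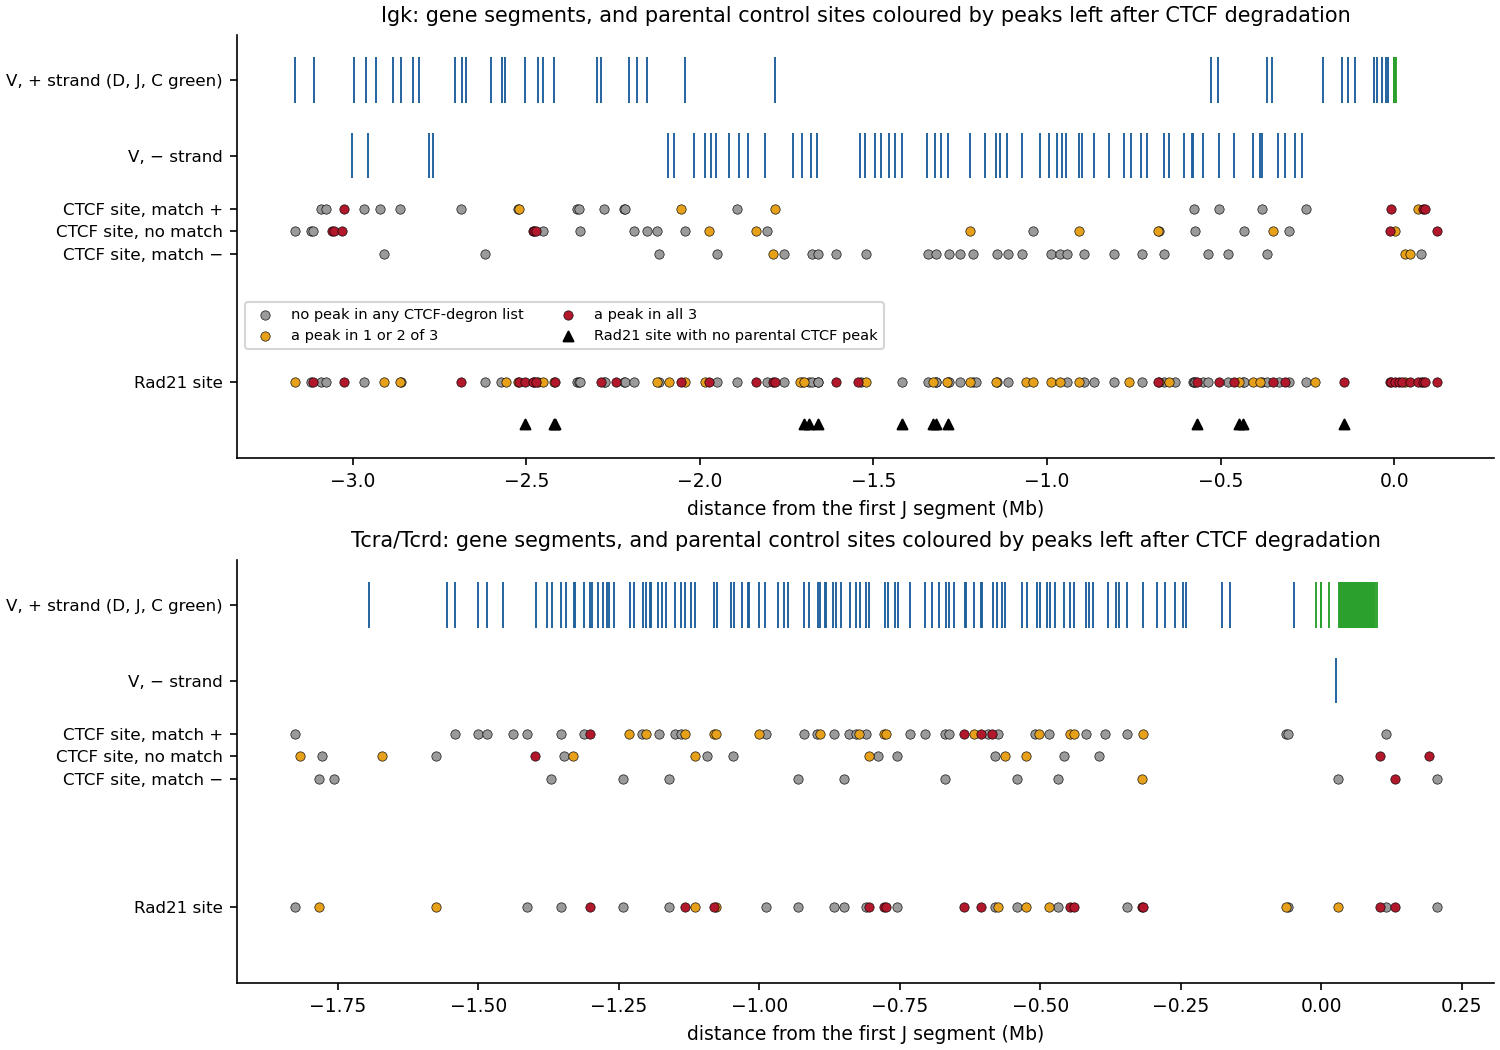
Positions of parental CTCF and Rad21 control sites and of V segments along Igk and Tcra/Tcrd, as distance from the first J segment, with strands of V segments and CTCF matches. Colours give the number of depleted CTCFdegron lists that kept the peak, and triangles mark Rad21 sites without a parental CTCF peak. In the V part, 38 of 49 Igk matches and 50 of 59 Tcra/Tcrd matches lie on the strand of the nearest V segment.

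Many of the matched sequences were copies of one another. In Tcra/Tcrd, 42 of the 66 matched sites shared their 19 bases with another CTCF site of the locus, in 16 groups, and in Igk 20 of 56 did so, in 7 groups. The groups described next were chosen after their values were seen. The Igkv4 group had 6 sites, all on the minus strand and all with Rad21 in every parental list. Its strongest member, 50026 bp from Igkv4-78 (chr6:69060244-69065567), had CTCF fold enrichments of 9.75, 7.66 and 10.1, and the lowest values were at the copies 1545 bp from Igkv4-78 (chr6:69011763-69012845), with 4.16, 4.48 and 4.86, and 2049 bp from Igkv4-63 (chr6:69330272-69330890), with 4.41, 4.26 and 4.53. None of the 6 had a CTCF peak in any depleted list. Their Rad21 peaks persisted in all 3 depleted lists at the strongest site, in 1 at Igkv4-73 and in none at the other 4.

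In Tcra/Tcrd the 3 Trav15 copies lay 4415 to 4501 bp from their V segments on the minus strand, against the direction of those segments. Their CTCF fold enrichments were 9.44, 9.67 and 11.5 at the Trav15d-2-dv6d-2 copy, 10.2, 8.84 and 10.9 at the Trav15n-2 copy, and 8.60, 12.0 and 14.5 at the Trav15-2-dv6-2 copy. All 3 had Rad21 in every parental list, and neither protein had a peak at any of them in a depleted list. A second minus-strand group of 3, 8663 to 11798 bp from the nearest V segment, behaved likewise. By contrast, the 5 plus-strand copies at Trav9 family and neighbouring segments, 0 to 153 bp from a V segment, had Rad21 in all parental lists at 1 site only, the one at Trav9-4. Of these 5, 3 had no CTCF peak in a depleted list. The 31-base words at the centres of most of these sites occur several times in the reference, so that their reads may be shared between copies, which was not tested.

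After CTCF depletion about as large a share of CTCF sites was lost in the receptor loci as elsewhere, and each locus kept at least 1 site in every depleted list. A lost site is a control site with no peak in any depleted list, and 141 of 210 CTCF control sites of the 5 loci were lost (67.1%), against 69.7% of all 33430 control sites of the genome. A peak in all 3 depleted lists was kept at 26 sites (12.4%), against 13.6% of all. The median percentile rank of parental fold enrichment was 84.7 at kept and 65.3 at lost sites of the 5 loci, but 62.6 and 63.6 in Igk. Of 345 member sites with no CTCF peak in parental cells 0 gained one in all 3 depleted lists, against 0.474% over the genome. By locus, 60 of 86 were lost and 12 kept in Igk, 55 of 86 and 8 in Tcra/Tcrd, 14 of 18 and 2 in Tcrb, 8 of 11 and 1 in Tcrg, and 4 of 9 and 3 in Igl.

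Peak density fell by 38.3 per Mb to 11.9 ± 2.88 in Igk, by 41.0 to 9.76 ± 3.90 in Tcra/Tcrd, by 20 to 7.50 ± 2.17 in Tcrb, by 43.3 to 11.1 ± 1.92 in Tcrg and by 37.8 to 26.7 ± 12.0 in Igl (SD, n = 3), while the rest of the genome came to 5.13. The groups did not overlap in Igk, Tcra/Tcrd, Tcrb and Tcrg, where the exact permutation test gave p = 0.1, the smallest that 3 against 3 libraries allow. Nor did they overlap in the rest of the genome, at 18.2 to 20.4 per Mb in parental and 3.20 to 6.14 in depleted lists. They overlapped in Igl (p = 0.3, exact permutation test), where parental replicate 1 had 35 peaks and the other parental lists 11 and 12, against 12, 7 and 5 after depletion. Without that parental library the change was −11.7 per Mb in Igl and −29.1 in Igk. The size of the changes also moved with the peak threshold. With peaks at a q-value of 0.001 or less they were −17.5 in Igk, −24.4 in Tcrg and −12.2 in Igl, and with a fold enrichment of 4 or more −17.7 in Igk and −4.44 in Igl. Because peaks were lost everywhere, the changes were also scaled per 10000 mouse peaks of a library. They were then −2.61 in Igk, −6.26 in Tcra/Tcrd and −0.615 in Tcrg, but 0.099 in Tcrb and 2.23 in Igl. The lowest adjusted p over the 15 tests of density change was 0.3.

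The share of CTCF control sites with a peak in a given depleted list was 26.7%, 24.4% and 15.1% in Igk for replicates 1 to 3, 18.6%, 32.6% and 11.6% in Tcra/Tcrd, and 22.9%, 27.6% and 15.1% in the rest. Igk differed from the rest by 0.22 percentage points on average and from Tcra/Tcrd by 1.16, both smaller than the spread between the lists, and each with a sign that changed with the processing. Neither large locus could be told from the rest of the genome in this measure at this number of libraries.

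**Figure D3:**
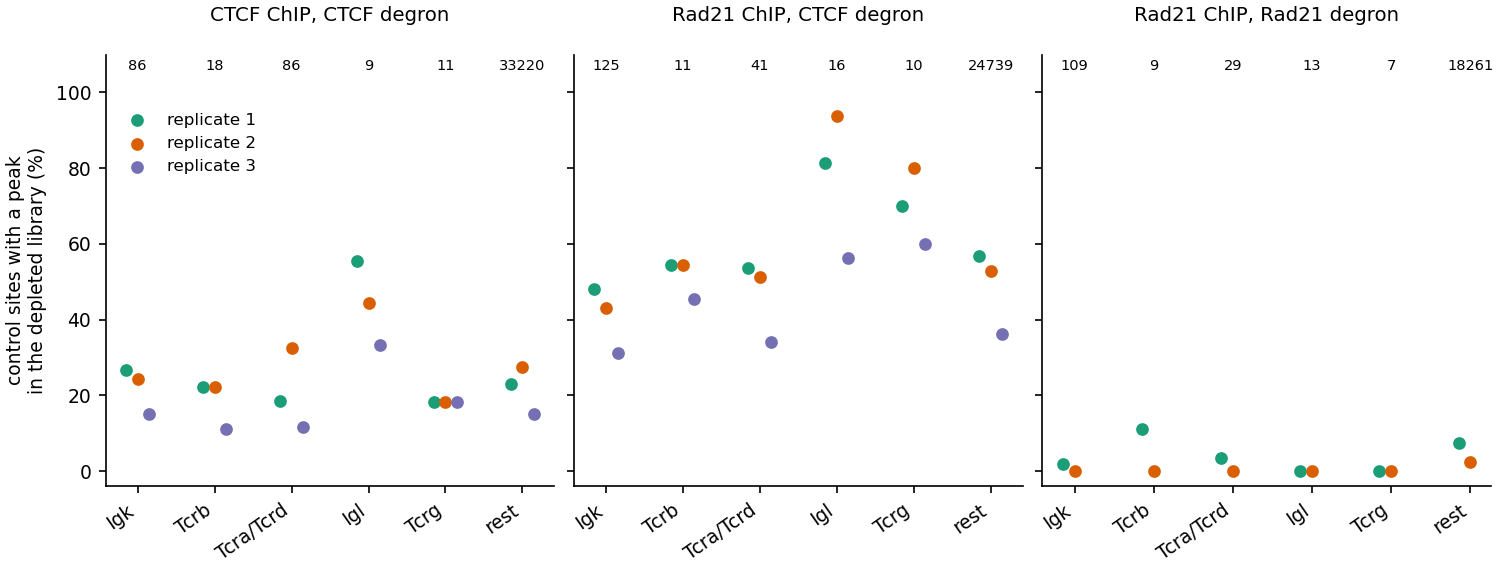
Percent of control sites that still had a peak in each depleted library, by locus, for CTCF and Rad21 after CTCF depletion and Rad21 after Rad21 depletion. Points are single libraries, and the number above each locus is its control sites. Igk and Tcra/Tcrd points for CTCF lie between 11.6% and 32.6%, around those of the rest of the genome (15.1% to 27.6%), and Igk points for Rad21 (31.2% to 48.0%) each lie under the rest (36.2% to 56.9%).

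In Igk the fates of CTCF sites were laid out along the locus as follows, with no test of position. The V part, 3148.5 kb long, had 75 CTCF control sites, of which 58 were lost and 7 kept in all depleted lists. The interval of 18.4 kb between Igkv3-1 and Igkj1 had 2, both kept. The first, 4329 bp from Igkv3-1 (chr6:70658500-70660431, intergenic), had CTCF fold enrichments of 13.5, 13.6 and 18.9 in parental cells and 5.35, 8.08 and 6.10 after depletion. Its Rad21 values were 35.5, 31.6 and 17.7 in parental cells and 14.7, 13.1 and 6.98 after CTCF depletion. The second, 7776 bp before Igkj1 (chr6:70662707-70664780, intergenic), had 12.8, 11.7 and 14.5 and then 6.12, 9.15 and 5.08 for CTCF. For Rad21 it had 17.4, 18.5 and 10.4 and then 12.9, 11.4 and 6.92. At both sites every depleted CTCF value was lower than every parental one, while the Rad21 values overlapped at the second. The other 10 merged sites of this interval were no control site of either protein.

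The site over Igkc, the kappa constant region exon (chr6:70674347-70676766), was weak for CTCF, with 3.83, 4.07 and 4.04 in parental cells and 5.05, none and 4.31 after depletion. Rad21 had a peak there in all 6 lists of the CTCF comparison, at 5.28, 5.86 and 4.66 in parental and 5.91, 5.97 and 4.96 in depleted cells. It had no CTCF match at its centre.

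Past Igkc, in 123.2 kb that reach the genes Rpia, a sugar phosphate isomerase, and Eif2ak3, a stress-responsive kinase, 1 of 7 CTCF sites was lost and 3 were kept in all lists. Those without a named rank were described after their values were seen. The strongest, 19411 bp from Rpia (chr6:70761637-70762501), had CTCF at 11.3, 14.3 and 17.5 in parental cells and 7.87, 14.9 and 8.39 after depletion, and Rad21 at 31.3, 25.0 and 11.6 and then 17.6, 15.1 and 6.66. The site 11985 bp from Rpia (chr6:70754211-70756537) had 8.19, 8.71 and 10.6 and then 8.29, 11.8 and 6.52, so that its CTCF groups overlapped. Between them and the gene, the site 5418 bp from Rpia (chr6:70747644-70748522) had 8.85, 10.5 and 13.3 for CTCF in parental cells and lost both proteins in every depleted list, although its match score of 24.8 was higher than the 19.6 and 18.2 of those kept neighbours. The site at the Eif2ak3 exon (chr6:70793347-70795762) rose in authors' value from 4.44, 3.74 and 3.58 to 5.62, 9.32 and 5.12. It had no match at its centre.

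**Figure D4:**
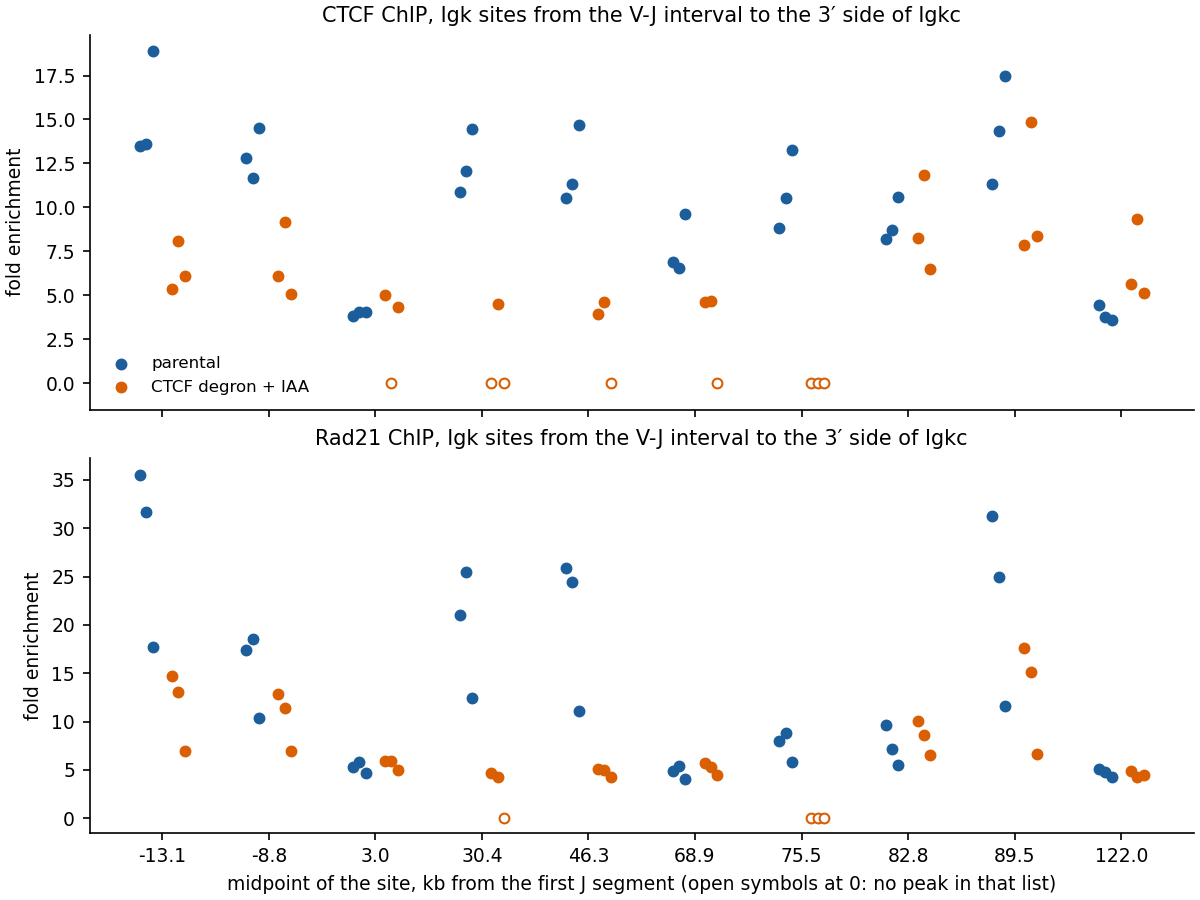
Authors' fold enrichment of CTCF and Rad21 peaks at the Igk sites between the last V segment and the end of the window, per library, for parental and depleted CTCFdegron cells, with open symbols at 0 where a list has no peak. CTCF at the V–J site beside Igkv3-1 runs from 13.5 to 18.9 in parental and 5.35 to 8.08 in depleted libraries, while the site over Igkc stays at 3.83 to 5.05 where it has a peak.

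Among the Igk V segments the highest kept site was 21102 bp from Igkv17-134 (chr6:67648603-67649621), far from Igkj1, with CTCF at 9.91, 12.8 and 13.5 and then 7.73, 9.16 and 5.20. By distance to Igkj1, the numbers of CTCF sites kept in every list were 4 of 9 from 4 to 3 Mb, 3 of 24 from 3 to 2 Mb, 0 of 22 from 2 to 1 Mb and 2 of 23 in the last 1 Mb, and 3 of 8 on the other side of Igkj1. The 2 kept in the last 1 Mb were the pair of the V–J interval, so no kept site lay among the V segments of that stretch either. In the block from 2 to 1 Mb, 29 of 30 V segments lie on the minus strand, and in the last 1 Mb 13 lie on the plus and 27 on the minus strand. Of the Igk sites lost, 45 of 60 had a match at the centre, against 4 of 12 kept in all lists. In the rest of the genome these shares were 78.2% and 45.6%, in the same order.

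In Tcra/Tcrd the strongest CTCF site stood 3664 bp past Trac, the alpha constant region gene, toward Dad1 (chr14:54846436-54848550, intergenic). It had CTCF at 15.1, 13.7 and 19.5 in parental cells and 6.58, 7.90 and 6.33 after depletion, and Rad21 at 29.5, 22.8 and 14.4 and then 13.4, 11.2 and 6.57. The depleted CTCF values all lay under the parental ones, and the peak was kept in every list. At the next strong site, over an exon of Dad1, a subunit of the oligosaccharyl transferase (chr14:54858423-54859336), CTCF had 11.1, 9.72 and 13.2 and Rad21 19.04, 14.9 and 7.71 in parental cells, and neither had a peak after depletion. In the 109.6 kb with the D, J and C segments there was 1 CTCF site, between Trdv5 and the Traj segments (chr14:54772232-54773088). It had 5.96, 6.27 and 7.19 and was lost, and its Rad21 values went from 7.61, 6.56 and 5.03 to 4.50, 4.43 and no peak.

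Among the Tcra/Tcrd V segments, 48 of 75 CTCF sites were lost and 5 kept in all lists. The pair of strongest lost sites lay in 1 stretch beside the V segment Gm16980. That at 1514 bp (chr14:54166710-54167808) had CTCF at 13.1, 14.3 and 15.1 in parental cells, Rad21 at 20.5, 22.6 and 10.1, and Rad21 at 4.18, 5.20 and no peak after CTCF depletion. That at 2608 bp (chr14:54161280-54162081) had 12.8, 13.2 and 15.5 for CTCF and kept neither protein. The 4 highest kept sites of the V part overlapped exons of V segments, namely Trav6d-6 (chr14:53440872-53442137), Gm13947 (chr14:54107022-54107907), Gm16981 (chr14:54136089-54137121) and Gm17011 (chr14:54157593-54158144), all with plus-strand matches. At Gm16981, for example, CTCF had 9.26, 9.90 and 12.9 in parental and 5.62, 6.32 and 4.61 in depleted cells. Their centres occur 2 to 5 times in the reference. Of the 42 Tcra/Tcrd CTCF sites within 1000 bp of a V segment, 20 were lost and 22 had a peak in at least 1 depleted list, against 35 lost and 9 of 44 farther away. The near sites had a single-copy centre at 11 of 42 and the far sites at 21 of 44. No test of this difference was made.

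In Tcrb the CTCF sites fell within the V part (14 sites, 10 lost and 2 kept) and past the constant genes (3 sites, all lost). None lay in the 15.0 kb of the D, J and C segments. The 251.2 kb between the last upstream V segment and Trbd1 held 1 site, 2618 bp before Trbd1 (chr6:41479566-41480582), with CTCF at 6.12, 6.66 and 7.00 and Rad21 at 5.43, 6.57 and 4.64 in parental cells. Neither protein had a peak there after CTCF depletion. The site 633 bp from Trbv31, the V segment that lies past the constant genes in inverted direction (chr6:41506066-41507057), also lost both, from 7.62, 8.48 and 9.56 for CTCF and 15.4, 10.9 and 7.39 for Rad21. By contrast the site 1186 bp from Trbv14 (chr6:41086794-41087600), with the highest match score of the named Tcrb sites (24.4), kept CTCF at 5.67, 5.93 and 4.06 from 10.4, 10.3 and 14.6. At the exon of Ephb6, a receptor tyrosine kinase family gene (chr6:41554180-41555722), CTCF was lost from 5.08, 6.52 and 7.59, while Rad21 had 7.64, 7.18 and 4.09 and then 7.12, 5.89 and 4.43.

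Copies of the same sequence in Igl had different fates, a comparison chosen after the values were seen. The outer pair differed at 2 of the 59 printed bases and at 0 of the 19 that matched. Its first member, 80196 bp from Iglv1 (chr16:19002369-19004914), had CTCF at 12.2, 11.6 and 15.3 in parental and 5.46, 8.52 and 5.69 in depleted cells. The second, 60451 bp from Iglv1 on the other side (chr16:19146004-19147910), had 12.1, 12.4 and 12.6 in parental cells and no peak in any depleted list. Their parental groups overlapped. Rad21 had 26.4, 26.5 and 14.1 at the first and 25.9, 19.9 and 14.3 at the second, and after CTCF depletion 10.5, 9.11 and 5.60 against 5.19, 5.18 and no peak.

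The other pair was identical over the 59 bases. The copy 1374 bp from Iglv2 (chr16:19262311-19264426) had CTCF at 11.8, 10.2 and 12.7 and kept 4.68, 7.63 and 4.19. The copy 1280 bp from Iglv1 (chr16:19086833-19089448) had 7.61, 8.53 and 10.0 and kept none. Both had Rad21 in all depleted lists, at 16.2, 12.3 and 8.07 by Iglv2 and at 4.29, 6.24 and 4.62 by Iglv1. The sites are 2116 and 2616 bp wide, so each may hold sequence that the printed bases do not show. Of the remaining strong sites, that 3911 bp from Iglv3 (chr16:19245683-19246542) lost CTCF from 10.5, 14.1 and 12.98.

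In Tcrg the site at Tcrg-V7 (chr13:19269237-19270415, overlapping its exon) was the 1 CTCF site kept in all lists, at 4.89, 6.86 and 5.21 from 10.4, 9.79 and 11.6. The site 5678 bp from Tcrg-V3 (chr13:19326754-19329036) lost CTCF from 10.2, 9.20 and 13.6, and its Rad21 went from 18.0, 22.2 and 11.3 to a peak of 4.15 in 1 list. In an intron of Stard3nl, a sterol-transport family gene at the edge of the locus (chr13:19455995-19458190), CTCF was lost from 8.67, 9.82 and 13.3, while Rad21 was kept at 5.53, 6.34 and 4.05 from 16.7, 17.2 and 9.54.

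Rad21 sites were lost after CTCF depletion at 84 of 203 control sites of the 5 loci (41.4%), against 41.4% of all 24942 control sites of the genome. They were kept in all 3 lists at 68 (33.5%, against 35.7% of all). By locus, 58 of 125 were lost and 34 kept in Igk, 18 of 41 and 14 in Tcra/Tcrd, 5 of 11 and 5 in Tcrb, 1 of 16 and 9 in Igl, and 2 of 10 and 6 in Tcrg. The mean density fell by 46.6 per Mb in Igk (p = 0.1, exact permutation test, the smallest possible), and the groups did not overlap there, with 164 to 352 Igk peaks per parental list and 57 to 137 per depleted list. It fell by 14.5 in Tcra/Tcrd (p = 0.3), 14.6 in Tcrb (p = 0.2), 55.6 in Igl (p = 0.2) and 27.8 in Tcrg (p = 0.4), where the groups overlapped in each exact permutation test. In the rest of the genome the mean density went from 18.3 to 9.97 per Mb. The groups overlapped there too, at 11.5 to 26.3 in parental and 6.11 to 13.7 in depleted lists. The size in Igl was −18.9 at a q-value of 0.001 or less, −20.0 at a fold of 4 or more and −11.1 with peaks within 1000 bp joined, that in Tcrg −12.2 at a fold of 4 or more and −17.8 with joining, and that in Igk −30.7 at a q-value of 0.001 or less. Replicate 1 of both Rad21 groups was made without the human HCT116 spike-in that the other 2 carried. Human peaks were also fewer in the depleted lists. Replicates 2 and 3 had 9640 and 1748 of them in parental cells and 1675 and 319 in depleted cells. A lower sensitivity of the depleted lists, for mouse peaks as well, was not tested. In the unspiked libraries Rad21 had 352 peaks in parental and 137 in depleted cells in Igk, 104 and 60 in Tcra/Tcrd, 32 and 12 in Tcrb, 53 and 25 in Igl and 36 and 20 in Tcrg, lower after depletion in all 5 loci. With the spiked libraries alone the changes were −37.3 in Igk, −10.98 in Tcra/Tcrd, −9.37 in Tcrb, −36.7 in Igl and −15 in Tcrg, and 2 against 2 libraries cannot give a p under 0.333. Without parental replicate 1 alone they were −30.6, −6.83, −7.29, −27.8 and −5.56 in the same order. In Tcrg, the change was −17.2 without depleted replicate 3 and −47.2 without parental replicate 3. Scaled per 10000 mouse peaks, Rad21 in Igk went from 51.9, 50.8 and 55.2 peaks in the parental lists to 38.9, 32.4 and 36.3 in the depleted lists, a change of −16.8 in which the groups did not overlap. The other changes on this scale were −0.771 in Tcrb, 1.20 in Tcra/Tcrd, 0.052 in Igl and 0.922 in Tcrg.

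Igk kept fewer of its Rad21 sites than the rest of the genome in each depleted list, at 48.0%, 43.2% and 31.2% against 56.9%, 52.7% and 36.2%. The mean difference was −7.82 ± 2.45 percentage points (SD, n = 3). It was negative in all 3 lists and under every alternative tried, but the exact sign-flip test cannot go below p = 0.25, which it gave, and the adjusted p over 15 such tests was 0.625 or more. Igl kept 81.2%, 93.8% and 56.2% of 16 sites, a mean of 28.5 ± 11.1 points above the rest, and Tcrg kept 70%, 80% and 60% of 10 sites, 21.4 ± 7.40 above. Both of these turned to the other side, to −4.62 and −0.28, when sites with a peak in any parental list were counted, and without parental replicate 3 that of Igl was 18.7. Tcra/Tcrd, at 53.7%, 51.2% and 34.1%, and Tcrb, at 54.5%, 54.5% and 45.5% of 11 sites, differed from the rest by −2.27 and 2.90 on average.

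Whether a Rad21 site kept its peak went with whether CTCF remained. Over the 5 loci, 20 Rad21 sites whose CTCF was kept in every depleted list kept Rad21 at 96.7% ± 2.89 (SD over 3 depleted Rad21 lists), and 32 sites whose CTCF remained in some lists at 92.7% ± 12.6. The 94 sites that lost all CTCF kept Rad21 at 17.7% ± 7.08. The 17 sites without CTCF in parental cells lay between them, at 43.1% ± 6.79. In the rest of the genome the values were 97.7%, 86.0%, 14.3% and 64.2% in the same order. The remaining 40 sites, with CTCF in only 1 or 2 parental lists, kept Rad21 at 55.0% ± 18.0, against 75.7% for such sites in the rest. Among sites that lost all CTCF, Igk kept 16.4% of 57, Tcra/Tcrd 12.5% of 24 and Igl 66.7% of 3. The classes come from the CTCF libraries, which are not the Rad21 libraries, but both antibodies were used on the same cell lines.

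**Figure D5:**
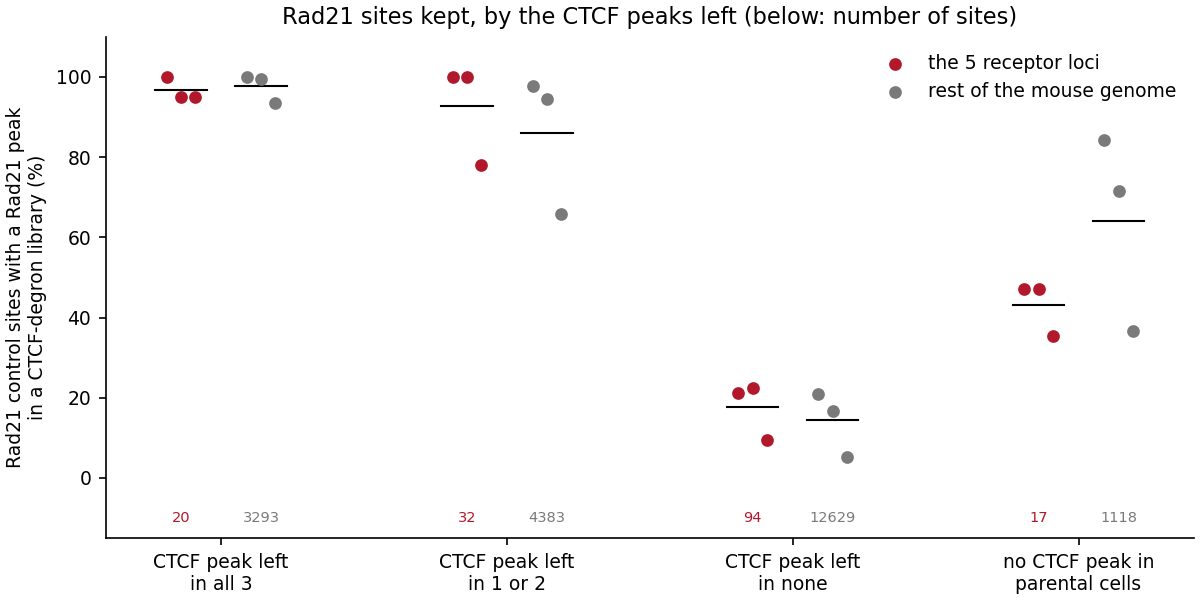
Percent of parental Rad21 control sites that kept a Rad21 peak in each of the 3 depleted libraries, by what remained of CTCF at the site (points are libraries, bars are means), for the 5 receptor loci together and for the rest of the genome. The 94 receptor-locus sites that lost all CTCF averaged 17.7%, and the 20 with CTCF kept in every list 96.7%. Sites with CTCF in only 1 or 2 parental lists, 40 of them in the receptor loci, are not shown.

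Of 203 member sites with no parental Rad21 peak, 2 gained one in all 3 depleted CTCFdegron lists, against 0.674% over the genome. One lay 471 bp from Trbv21 in Tcrb (chr6:41151742-41152283), at 4.19, 3.92 and 4.08. The other overlapped the exon of Trav15-2-dv6-2 in Tcra/Tcrd (chr14:54269008-54269429), at 4.28, 4.13 and 4.68, but it also had a peak in 1 of the 2 untreated Rad21degron lists. Neither had a CTCF match at its centre or a CTCF peak in any list. In the same lists the median fold enrichment of peaks in the rest of the genome was 4.52, 4.81 and 4.48. Of the gained values only the 4.68 lay above the median of its list. The lowest fold enrichment found in any list was 3.26.

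Rad21 depletion removed almost all cohesin peaks from the 5 loci. Untreated Rad21degron cells had a Rad21 peak in both lists at 167 member sites, of which 163 had none in either IAA-treated list (97.6%, against 92.3% of all 18428 such sites in the genome). In both treated lists 0 were kept, against 2.07% over the genome. Igk had 188 and 141 peaks without IAA and 5 and 1 with it, Tcra/Tcrd 57 and 32 and then 2 and 1, and Tcrb 13 and 11 and then 1 and 0. Igl went from 20 and 14 to 0 and 0, and Tcrg from 23 and 9 to 0 and 0. Density thus fell by 48.9 per Mb in Igk, 21.0 in Tcra/Tcrd, 14.4 in Tcrb, 56.7 in Igl and 53.3 in Tcrg. The groups did not overlap in any locus, and p = 0.333 in each exact permutation test is the smallest that 2 against 2 libraries allow. The rest of the genome fell as well, from a mean of 10.7 per Mb to 0.972. Its groups did not overlap either, at 8.57 to 12.8 without IAA and 0.542 to 1.40 with it. Human spike-in peaks fell as well, from 11861 and 14878 without IAA to 5603 and 5481 with it, and the reason was not tested. Without untreated replicate 1 the change in Tcrg was −30.0 per Mb. At a q-value of 0.001 or less the changes were −18.9 in Igk, −8.29 in Tcra/Tcrd, −7.50 in Tcrb, −25.0 in Igl and −23.3 in Tcrg, and at a fold of 4 or more −33.3 in Tcrg. The share kept, 1.83% and 0 in Igk and 3.45% and 0 in Tcra/Tcrd, lay under that of the rest, 7.34% and 2.51%, in both lists.

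Among the 4 sites that kept a Rad21 peak in 1 treated list were the site past Trac, with 10.2 and 9.15 without IAA and 5.72 in replicate 1 with it, and the Eif2ak3 exon site past Igkc, with 4.45 and 4.06 and then 4.85 in replicate 1. The pair in the Igk V–J interval had Rad21 at 12.9 and 10.1 and at 9.27 and 7.60 without IAA and no peak with it. A gain in both treated lists was seen at 1 of 496 member sites without a peak before, against 0.232% over the genome. It lay 32854 bp from Olfr49 at the edge of the Tcra/Tcrd window (chr14:54935454-54935852), at 4.95 and 5.27, and the 31-base word at its centre occurs 169 times in the reference. The site also had Rad21 peaks in parental replicate 1 (3.91) and depleted CTCFdegron replicate 1 (4.77), and CTCF peaks in all 6 CTCF lists.

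The untreated Rad21degron line held most of the parental Rad21 sites. Its 2 lists had a peak at 85.6% and 72.8% of the 125 Igk sites, 92.7% and 65.9% of the 41 in Tcra/Tcrd, 90.9% and 90.9% of the 11 in Tcrb, 87.5% and 68.8% of the 16 in Igl and 100% and 60% of the 10 in Tcrg. In the rest of the genome the values were 81.9% and 65.7%.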

How the data were processed

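The series holds 16 ChIP libraries with a broadPeak list each and 8 input libraries, which were not used. Alignment was to mm9 combined with the entry AJ851868, per the labels, and the submitters' processing notes name Bowtie2 2.2.8, SAMtools 1.8, mm9 and hg19. The peak caller, its threshold, its control and its handling of reads that fit several copies are not given in the sources used here. Each deposited list gives per peak a linear fold enrichment (column 7), a p-value and a q-value as −log10 (columns 8 and 9) and a score (column 5) that is within 1 of 10 times column 9 in all 16 lists. Lists were called per library, so replicates were not pooled. No depth is known, and no interval is given.

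Human contigs, present in 8 lists, were left out of all sites and densities, and only their peaks were counted. Peaks of all lists were merged where they overlapped by 1 bp or more. Control, kept, lost and gained sites were defined by presence in every or no list of a group. Densities are peaks per Mb of window. Groups were compared by exact permutation tests, and loci by exact sign-flip tests over libraries, two-sided, with Benjamini-Hochberg adjustment within each family. The merging of peaks and the percent kept were checked on simulated lists with a known percent kept, and the tests on small fixed sets of values. Genes came from GENCODE vM1 on NCBIM37, the mm9 sequence. The CTCF matrix, its 5% threshold and the copy number of 31-base words used that genome. Copies of a word were counted over the whole reference. Chromosome 12 holds a sequence in the lists' build that the reference does not. It was left out of the matrix training and of the match shares, single-copy shares and sampled words of the rest. Tools were Python 3.11.15, numpy 2.4.6, pandas 2.3.3, scipy 1.17.1, pysam 0.24.0 and matplotlib 3.10.9.

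Sites were named by rule. Per locus these were the 3 highest CTCF sites of parental cells by mean percentile rank of fold enrichment, up to 5 highest CTCF sites kept in all depleted lists, up to 3 highest Rad21 sites without CTCF, every site between the last Igk V segment and Igkj1, the site nearest each constant gene, every gained site, and up to 3 Rad21 sites kept after Rad21 depletion, of which there were none. Sites past the constant genes, sites between V and J outside Igk, and sites with shared sequences were chosen after their values were seen. The members and lists were chosen with earlier results of these data known. Alternatives changed the peak threshold, joining, overlap, site definition, scaling, chromosomes, copy number, spike-in libraries and single libraries.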

Additional observations from a re-analysis of the deposited data

How the results depend on the processing

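The 46 results were recalculated 547 times in all, each under the settings that applied to it. Of these recalculations 505 kept the direction, 39 reversed it and 3 gave 0. Scaled per 10000 mouse peaks instead of per Mb, the changes after CTCF depletion turned positive for CTCF in Tcrb (0.099) and Igl (2.23) and for Rad21 in Tcra/Tcrd (1.20), Igl (0.052) and Tcrg (0.922). Differences from the rest in percent of CTCF sites kept were near 0 and reversed with several choices. For Igk they became −1.11 with peaks joined over 1000 bp, −0.216 with sites from control lists only, −0.621 with 50% of the site covered and −4.98 with sites of at least 1 control list, and −1.60 to 2.01 with single libraries left out. For Tcrb they became 1.76 at q 0.001, 4.27 at fold 4, 3.40 with joining and 0.369 with 50% cover. For Tcra/Tcrd they became 0.103 at fold 4 (−3.88 to 0.727 with single libraries left out), and for Tcrg 7.32 at q 0.001 and 1.49 at fold 4 (−7.10 to 2.90). Igk minus Tcra/Tcrd became −0.189 with joining, −0.388 with 50% cover and −1.95 with sites of at least 1 list (−2.33 to 5.81 with single libraries left out). For Rad21 after CTCF depletion, Tcrb became −7.79 at q 0.001, −6.06 with control-list sites, −0.667 with 50% cover and −8.40 with sites of at least 1 list (−4.38 to 4.35), and with sites of at least 1 list Tcra/Tcrd became 2.13, Igl −4.62 and Tcrg −0.277. After Rad21 depletion, Tcra/Tcrd minus rest became 2.17 at q 0.001, and Igk minus Tcra/Tcrd became 0 with 50% cover and 0.0151 with sites of at least 1 list (−1.61 to 0.0343). The share of Tcra/Tcrd CTCF sites with Rad21, minus the rest, became 0.0149 at single-copy sites. The cause was not tested for any of these. The density differences between loci and the rest kept their direction under every setting run. Counting per Mb of unique sequence could only raise them, so its direction was fixed in advance.

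Libraries that share a replicate number did not regularly deviate together site by site. The same-number correlations were 0.063, −0.017 and 0.031 for CTCF and −0.112, 0.055 and −0.064 for Rad21 in the CTCF comparison. CTCF replicates 1 and 3 and Rad21 replicate 2 correlated best with their own number. For the Rad21 degron pairs the value was −0.016. With 2 libraries per group both pairs must give the same value, so it cannot show whether they pair. As the signs were mixed, the numbers were not treated as pairs. Even so, the Rad21 totals of replicates 1, 2 and 3 had the same order in parental (67810, 43925 and 29724) and depleted CTCFdegron lists (35224, 25949 and 15690). With a replicate block the change in Igk was again −38.3 for CTCF, with p = 0.25 in the exact sign-flip test, the smallest that 3 pairs allow (0.5 for 2 pairs), and no call changed. Rad21 in the CTCF comparison was lower after depletion within each of the 3 numbers in all 5 loci, and the exact sign-flip test with the block gave p = 0.25 in each. With 2 or 3 libraries per group no single comparison can pass 0.05. Without read counts, a site without a peak may hold signal under the callers' threshold.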
